A study of Mus musculus with 6 samples.

Results

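The genes described are the mouse cold-shock domain genes of the Y-box family and the CARHSP1 family, namely Ybx1, Ybx2, Ybx3, Carhsp1 and Csdc2. They were chosen by family membership, though with earlier results of these data known, and are 5 of the 51733 gene symbols counted. RNA was sequenced from Sox2-positive neural progenitor cells (NPCs), the dividing stem-like cells of the embryonic neural tube, sorted from E13.5 embryos. There were 3 control libraries and 3 Ybx1-KO libraries. All 6 came from mice given as C57BL/6. Control embryos were wildtype at Ybx1 by their labels and siblings of the mutants by the paper. Ybx1-KO embryos carried the null allele, and both groups carried the Sox2-eGFP reporter that drove the sort. The paper lists the reporter line under a mixed-strain name. The null allele is constitutive and acts in every tissue of the mutant embryo, so the libraries do not separate a change within NPCs from one that came from surrounding tissue. The labels do not say whether a library is 1 embryo or a pool, or which libraries are siblings.

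The cold-shock domain is an ancient nucleic acid-binding fold shared with bacterial cold-shock proteins. Y-box proteins join this domain to a long charged tail, coat mRNA in the cytoplasm, and so affect its translation and stability. Ybx1 is the broadly expressed member of the embryo, Ybx2 (Msy2) is the germ cell member, and Ybx3 (Msy4, also called CSDA or ZONAB) is expressed in many embryonic tissues. Carhsp1 and Csdc2 (PIPPin) are short proteins built around a more distant cold-shock domain, Carhsp1 being known for binding the mRNA of Tnf and Csdc2 for expression in brain. Whether Ybx3, the closest relative of Ybx1, stands in for it when it is lost is a long-standing question, which the comparison of genotypes addresses at the level of RNA.

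How alike these genes are is shown by 150 bases of each coding sequence around the motif through which the domain contacts nucleic acid. The sequences are from the GENCODE M21 transcripts of GRCm38 and are written 5′ to 3′. Capitals in Ybx2 and Ybx3 mark bases that differ from Ybx1, and capitals in Csdc2 mark bases that differ from Carhsp1. All of them are coding exon sequence, from chromosomes 4, 11, 6, 16 and 15 in the order printed.
Ybx1: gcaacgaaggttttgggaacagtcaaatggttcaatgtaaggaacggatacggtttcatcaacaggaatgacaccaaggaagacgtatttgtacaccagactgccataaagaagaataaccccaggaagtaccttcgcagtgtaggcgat
Ybx2: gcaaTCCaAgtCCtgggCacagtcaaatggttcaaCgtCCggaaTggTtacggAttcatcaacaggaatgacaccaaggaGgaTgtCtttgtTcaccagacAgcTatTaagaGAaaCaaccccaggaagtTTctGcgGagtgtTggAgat
Ybx3: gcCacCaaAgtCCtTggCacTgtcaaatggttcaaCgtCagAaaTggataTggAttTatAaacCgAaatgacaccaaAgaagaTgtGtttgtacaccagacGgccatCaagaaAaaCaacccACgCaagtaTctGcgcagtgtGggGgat
Carhsp1: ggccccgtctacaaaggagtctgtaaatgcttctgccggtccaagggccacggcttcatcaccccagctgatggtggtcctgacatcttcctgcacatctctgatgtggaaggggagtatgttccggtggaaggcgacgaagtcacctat
Csdc2: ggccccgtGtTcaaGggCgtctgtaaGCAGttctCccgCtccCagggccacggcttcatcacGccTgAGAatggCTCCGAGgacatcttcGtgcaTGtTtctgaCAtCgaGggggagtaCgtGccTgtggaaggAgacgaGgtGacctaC
Ybx3 differed from Ybx1 at 32 of the 150 bases, and yet all 50 encoded residues were the same. Ybx2 differed from Ybx1 at 29 bases, and 46 of 50 residues were the same. Csdc2 differed from Carhsp1 at 38 bases, with 39 of 50 residues the same. Between the families the resemblance was low, with 12 residues shared by Ybx1 and Carhsp1 and 14 by Ybx1 and Csdc2 in these ungapped windows.

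These differences bear on the counting. The longest run of bases that the coding sequence of Ybx1 shared with that of Ybx3 was 20 bases, and with that of Ybx2 it was 26 bases, both shorter than the 100-cycle reads. No stretch of 100 bases in the transcripts of one member occurred in another member. Ybx1 shared 100 of its 2621 possible 100-base stretches with 2 processed pseudogenes, Gm11560 and Ybx1-ps2, and Carhsp1 shared 76 of 2759 with the pseudogene Gm9791. Ybx2, Ybx3 and Csdc2 shared none with another gene. Ybx1-ps2 held 4, 39 and 12 counts in the control libraries and 2, 13 and 3 in the Ybx1-KO libraries. Gm11560 held 13, 31 and 18 counts in control and 4, 0 and 4 in Ybx1-KO, and Gm9791 held between 3 and 28. The counts of both pseudogenes named only for this overlap were small beside those of their parent genes, which had 68 or more counts in every library. The sequence of the forward primer with which the study genotyped both alleles lies within the Ybx1 window printed above, so that exon sequence is present on the null allele.

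The starts of transcription were searched for Ybx1, Ybx2, Ybx3 and Carhsp1, and not for Csdc2. The CCAAT box, searched as CCAAT on both strands in the 140 bases before each RefSeq start on GRCm38.p6, occurred 3 times before Ybx1, 2 times before the first start of Ybx2, 1 time before Carhsp1 and not before Ybx3 or the second start of Ybx2. Of 32851 promoters of this length, 23.4% held at least 1 such box, 5.44% at least 2 and 0.941% at least 3. Its inverted form ATTGG is the core of the element after which Y-box proteins were named.

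The libraries differed in depth and background. Control libraries held 20841990 to 23883542 counts on genes and Ybx1-KO libraries 4743279 to 13321952. Ybx1-KO library 3 stood apart. Of its read pairs, 59.5% lay outside genes, against 30.6% to 46.7% in the others, and its 1498 olfactory, vomeronasal and taste receptor genes, which NPCs are not known to use, held 4257 CPM, the counts scaled to a common library total, against 20.9 to 91.2 CPM. The members' results and some of the list results are also given without it. By the edgeR quasi-likelihood test (Benjamini-Hochberg), 0% of 21329 genes passed an adjusted p of 0.05 with a fold change above 1.5, and limma-voom also called 0, while 2393 genes had an unadjusted p below 0.05 and DESeq2 called 214. The median log2 fold change of all genes tested was 0.31, with 61.3% of them above 0. Without Ybx1-KO library 3 it was -0.16 over 19783 of these genes, with 43.2% above 0. It was 0.013 over 15184 genes when genes were filtered again by mean FPKM in the remaining libraries. The level against which a gene is read thus turns on that library and on the filter. With all 6 libraries it was 0.13 over protein-coding genes alone and 0.08 over genes with a CPM above 1 in 3 libraries.

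Across the 5 genes, Ybx1 was lower in every Ybx1-KO library and none of its 4 relatives was higher in every Ybx1-KO library. All 5 passed the filter of a mean FPKM above 1 in either group. None was called, as for the table as a whole. Ybx1 alone had an unadjusted p below 0.05, in the lower direction, where 4.26% of all genes did, and none had one in the higher direction, where 6.96% did. Ybx1 was also the only one whose libraries did not overlap between the genotypes. Of all genes tested, 8.17% had all Ybx1-KO libraries below all controls and 4.99% had them all above. These shares are over the 21329 genes that passed the filter with all 6 libraries, where 15184 passed without Ybx1-KO library 3. The shares may therefore also turn on that library. The median log2 fold change of the members was -0.22, and 0.037 without Ybx1-KO library 3.

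**Figure D1:**
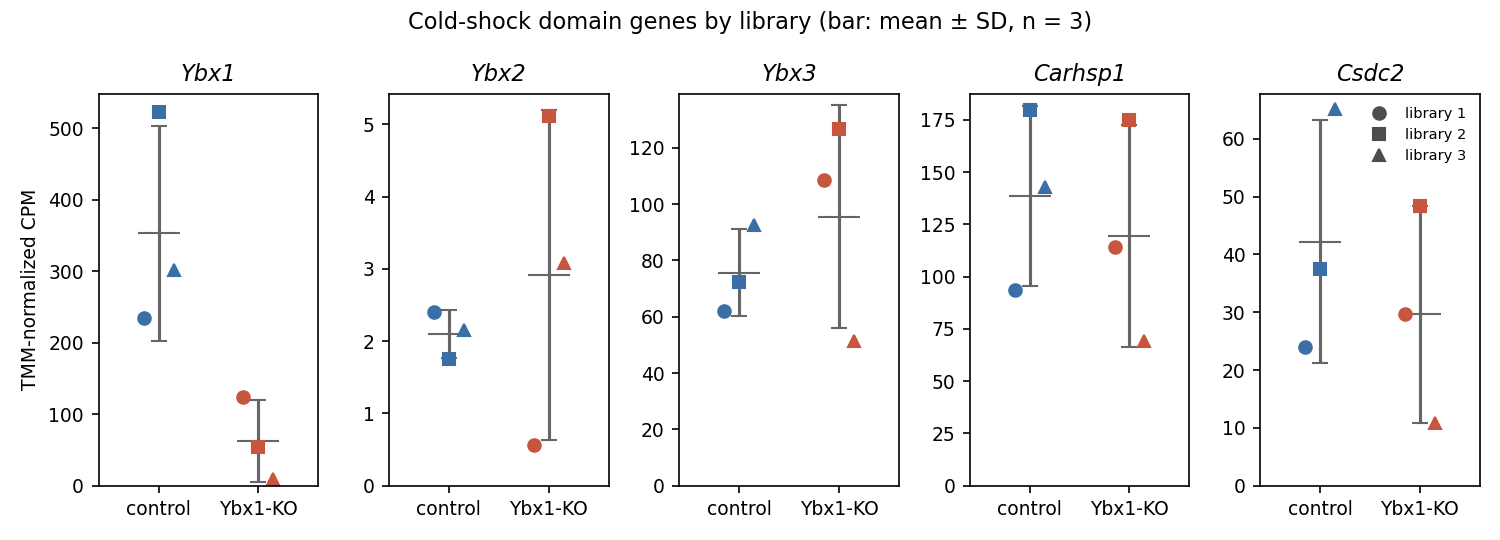
TMM-normalized CPM (vertical axes, linear and different for each gene) of the 5 genes in 3 control libraries (blue) and 3 Ybx1-KO libraries (red), with the mean and SD of each group in grey. Ybx1 separates the genotypes, Ybx3 is above all controls in Ybx1-KO libraries 1 and 2 and below them in library 3, and the others overlap.

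Ybx1 lies on chromosome 4 of GRCm38 from 119277981 to 119294604 on the minus strand. Its level, in CPM normalized between libraries by trimmed mean of M values (TMM), was 235, 523 and 301 in control libraries 1, 2 and 3 and 124, 54.5 and 9.51 in Ybx1-KO libraries 1, 2 and 3. All Ybx1-KO libraries lay below all controls, and they also differed widely among themselves. Relative to the control mean, the Ybx1-KO libraries held 35.2%, 15.4% and 2.70% of the Ybx1 RNA. The raw counts were 4972, 11345 and 6020 in control and 1112, 533 and 68 in Ybx1-KO, so the lowest level rests on 68 counts, of which the receptor background per kilobase would give 9.30. The means were 353 ± 151 CPM for controls and 62.7 ± 57.8 CPM for Ybx1-KO NPCs (SD, n = 3 each). The log2 fold change was -2.49 with a standard error of 0.640 and a 95% interval from -3.84 to -1.14.

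Every library thus met its genotype label in direction at the deleted gene. The adjusted p was 0.301 by the edgeR quasi-likelihood test. The two-sided exact permutation test gave p = 0.1, the smallest that 3 against 3 libraries allow. Ybx1 passed both thresholds with DESeq2 (adjusted p = 0.0236), where 1% of genes did, and in edgeR with no filter on low counts (adjusted p = 0.0214), where 0.451% did. It passed as well without Ybx1-KO library 1, the mutant library with the most Ybx1 RNA, where the log2 fold change was -3.49 (adjusted p = 0.0405 in edgeR) and 0.131% of genes passed. Without Ybx1-KO library 3 the log2 fold change was -1.99. The deposited counts are sums over a gene, so they do not show which exons the remaining Ybx1 reads came from. In these sorted cells, fewer cells with Ybx1 RNA and less RNA per cell cannot be told apart.

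Ybx3, the relative with the same 50 residues in the printed window, lies on chromosome 6 from 131364855 to 131388476 on the minus strand. Its normalized level was 62.1, 72.5 and 92.6 CPM across controls and 109, 127 and 51.2 CPM across Ybx1-KO libraries 1, 2 and 3. Ybx1-KO libraries 1 and 2 had the highest levels of the 6 and library 3 the lowest, so the genotypes overlapped. The means were 75.7 ± 15.5 CPM for controls and 95.6 ± 39.5 CPM for Ybx1-KO NPCs (SD, n = 3 each). The log2 fold change was 0.34 with a standard error of 0.415, where the median of all genes was 0.31, and the adjusted p was 0.710 in the edgeR quasi-likelihood test. The 95% interval of the fold change ran from 0.687 to 2.32, so a rise of up to that upper bound lies within the error of these libraries. The two-sided exact permutation test gave p = 0.7.

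Ybx3 depended on Ybx1-KO library 3 more than on the tool, scaling or filter, which left its log2 fold change between 0.26 and 0.42. Without that library the log2 fold change was 0.61 (adjusted p = 0.543 in edgeR), where the median of all genes was -0.16. The 95% interval of the fold change ran from 0.871 to 2.69. With the filter also applied again, Ybx3 was at 0.65 and the median of all genes at 0.013. Both remaining Ybx1-KO libraries, at 109 and 127 CPM, lay above every control. Of the 21329 genes tested with all 6 libraries, 10.3% had both of these libraries above all controls and 14.6% had both below. The two-sided exact permutation test on these 5 libraries gave p = 0.2, the smallest that 2 against 3 allow. Without Ybx1-KO library 2 the log2 fold change was 0.08. Receptor background accounted for 3.09% of the 366 Ybx3 counts in Ybx1-KO library 3. That library also had the lowest level of the 6 for 4 of the 5 cold-shock genes and for 27.7% of the 13693 protein-coding genes tested. The part of background in its low levels was not tested.

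**Figure D2:**
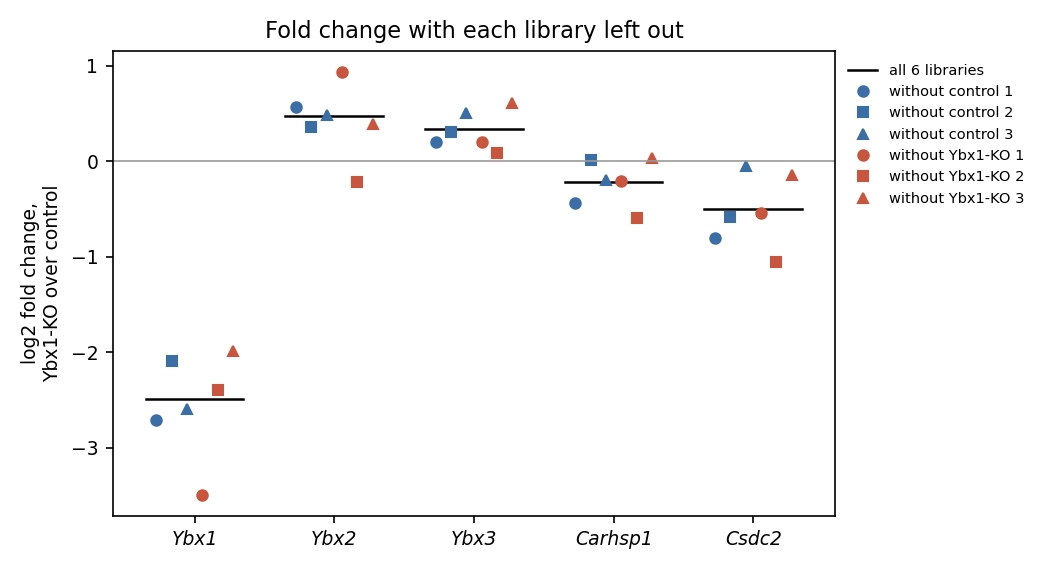
Log2 fold change of Ybx1-KO over control (vertical axis) for each gene (horizontal axis) with all 6 libraries (black line) and with each library left out in turn (points, colored by the genotype of the library left out). Ybx1 stays at -1.99 or below, Ybx3 runs from 0.08 to 0.61, and Ybx2 and Carhsp1 change sign.

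Ybx2, the germ cell Y-box gene, lies on chromosome 11 from 69935796 to 69941605 on the plus strand and had the fewest counts of the 5. It had 51, 38 and 43 counts in the control libraries and 5, 50 and 22 counts in Ybx1-KO libraries 1, 2 and 3. The normalized levels were 2.41, 1.75 and 2.15 CPM in control and 0.558, 5.11 and 3.08 CPM in Ybx1-KO. The controls were close together, whereas the Ybx1-KO libraries lay on both sides of them. Counting error alone gives a 95% exact Poisson interval of 0.181 to 1.30 CPM in Ybx1-KO library 1 and 3.79 to 6.74 CPM in library 2, so these mutant libraries differed beyond it. The log2 fold change was 0.47 with a standard error of 1.15 and a 95% interval from -1.95 to 2.89 (adjusted p = 0.861, the edgeR quasi-likelihood test). The two-sided exact permutation test gave p = 0.8. Without Ybx1-KO library 2 the sign turned, to -0.21.

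The Ybx2 level was read beside 2 other values. In Ybx1-KO library 3 the receptor background per kilobase would give 6.93 of its 22 counts, or 31.5%, against at most 1.57% in the other libraries. Of 6 germ cell markers, which these sorted cells were not expected to hold, 1 passed the filter, 1 was at 0 in every library, and the summed level was 0.550 to 1.38 CPM in control and 0.204 to 9.79 CPM in Ybx1-KO. Ddx4, a germ cell RNA helicase, had 8.48 and 7.97 CPM in Ybx1-KO libraries 1 and 3. The Ybx1-KO library with the most Ybx2 had the lowest sum of these markers, 0.204 CPM. Whether germ cells gave any of the Ybx2 counts was not tested.

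Carhsp1 lies on chromosome 16 from 8658580 to 8672155 on the minus strand. Its normalized level was 93.7, 180 and 143 CPM across controls and 114, 175.1 and 69.1 CPM across Ybx1-KO libraries. The genotypes overlapped over most of their range, and the lowest value was again that of Ybx1-KO library 3. The means were 139 ± 43.1 CPM for controls and 120 ± 53.2 CPM for Ybx1-KO NPCs (SD, n = 3 each). The log2 fold change was -0.22 with a standard error of 0.442 and a 95% interval from -1.15 to 0.72 (adjusted p = 0.831, the edgeR quasi-likelihood test). Its sign turned without Ybx1-KO library 3, at 0.037, and without control library 2, at 0.014, both close to 0. The two-sided exact permutation test gave p = 0.6.

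Csdc2 lies on chromosome 15 from 81936759 to 81950941 on the plus strand. Its normalized level was 23.99, 37.5 and 65.1 CPM across controls and 29.7, 48.4 and 10.9 CPM across Ybx1-KO libraries. Both groups spanned a wide range, and the only Ybx1-KO library outside the control range was library 3, where receptor background would give 21.8% of its 78 counts. The means were 42.2 ± 21.0 CPM for controls and 29.7 ± 18.8 CPM for Ybx1-KO NPCs (SD, n = 3 each). The log2 fold change was -0.50 with a standard error of 0.498 and a 95% interval from -1.56 to 0.55 (adjusted p = 0.636, the edgeR quasi-likelihood test). It was -0.14 without Ybx1-KO library 3, -1.05 without Ybx1-KO library 2 and -0.05 without control library 3. The two-sided exact permutation test gave p = 0.5.

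Levels of the 3 Y-box genes were then set beside each other per length, as TMM-normalized CPM per kilobase of exon. In control NPCs, Ybx1 had 139 ± 59.6 (SD, n = 3), Ybx3 24.6 ± 5.05 and Ybx2 1.12 ± 0.176 CPM per kb, and this order held in all 3 control libraries without overlap. In Ybx1-KO NPCs, Ybx1 had 24.8 ± 22.8 and Ybx3 31.1 ± 12.8 CPM per kb, and their ranges overlapped. Ybx2 had 1.55 ± 1.21 CPM per kb there and remained the lowest of the 3 in every library. On the same scale Carhsp1 had 48.6 ± 15.1 CPM per kb in control and 41.8 ± 18.6 in Ybx1-KO, and Csdc2 had 9.13 ± 4.54 and 6.42 ± 4.06. In Ybx1-KO NPCs Carhsp1 thus had the highest mean of the 5, although its range overlapped with that of Ybx1 and of Ybx3.

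The sum of the 3 Y-box genes was 114, 231 and 150 CPM per kb in the control libraries and 84.7, 65.5 and 22.04 in the Ybx1-KO libraries, without overlap. The Ybx1-KO mean was 34.8% of the control mean. This sum includes the Ybx1 reads that remained in Ybx1-KO libraries, 57.9% of it in library 1. Counts do not show whether the RNA behind those reads encodes Ybx1 protein. Most of the sum was Ybx1 in control, and Ybx3 made up 17.7%, 10.2% and 20.0% of it in control and 41.7%, 63.0% and 75.5% in Ybx1-KO libraries 1, 2 and 3. That share depends on the level of Ybx1 as well as on that of Ybx3. In absolute terms Ybx1 was lower by 114.6 CPM per kb in Ybx1-KO NPCs and Ybx3 was higher by 6.47 CPM per kb, which is 5.64% of the Ybx1 difference. At the upper bound of its 95% interval the Ybx3 difference would be 32.6 CPM per kb, or 28.4% of the Ybx1 difference. These values rest on Ybx1-KO library 3. Without it, Ybx3 was higher by 13.7 and Ybx1 lower by 104.1 CPM per kb, a share of 13.1%, or 39.8% at the upper bound, and the Y-box sum was 45.5% of the control mean.

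**Figure D3:**
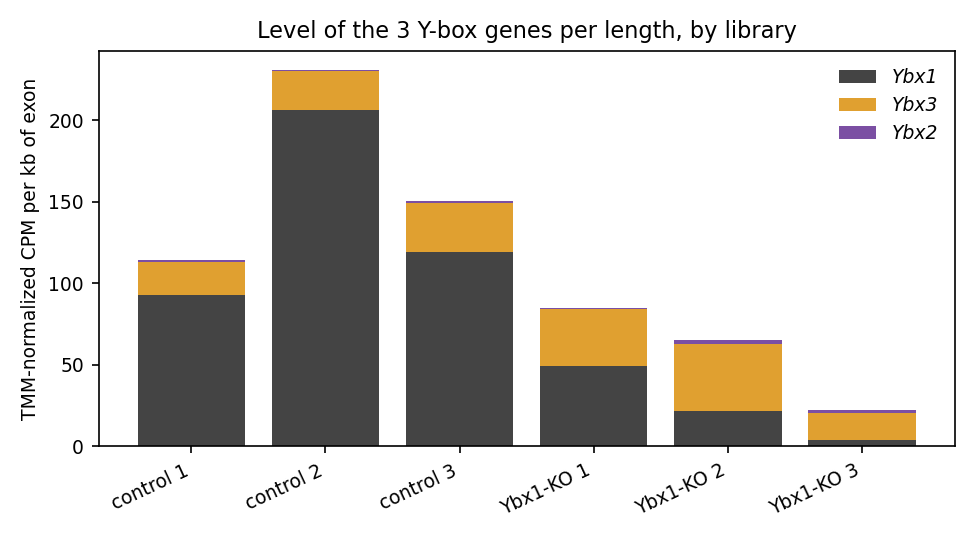
Stacked levels of Ybx1, Ybx3 and Ybx2 in TMM-normalized CPM per kb of exon (vertical axis, from 0) in each of the 6 libraries. The stacks reach 114 to 231 in control and 22.04 to 84.7 in Ybx1-KO, with the Ybx3 layer at 20.2 to 30.1 and 16.7 to 41.3.

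Lin28a and Lin28b gave a comparison outside these families. They join 1 cold-shock domain to zinc knuckles and block the maturation of let-7 microRNAs. Lin28a had 0.378, 4.42 and 0.800 CPM in control and 2.12, 8.79 and 23.5 CPM in Ybx1-KO. The highest value was that of Ybx1-KO library 3, and the genotypes overlapped through control library 2. The log2 fold change of Lin28a was 2.61 (adjusted p = 0.430) and that of Lin28b was 0.87 (adjusted p = 0.450), both in the edgeR quasi-likelihood test. Of both genes, Lin28a alone had an unadjusted p below 0.05. Lin28a gave a log2 fold change of 1.53 without Ybx1-KO library 3 and 4.26 without control library 2. That of Lin28b ran from 0.55 to 1.54 with 1 library left out, the highest without control library 2.

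**Figure D4:**
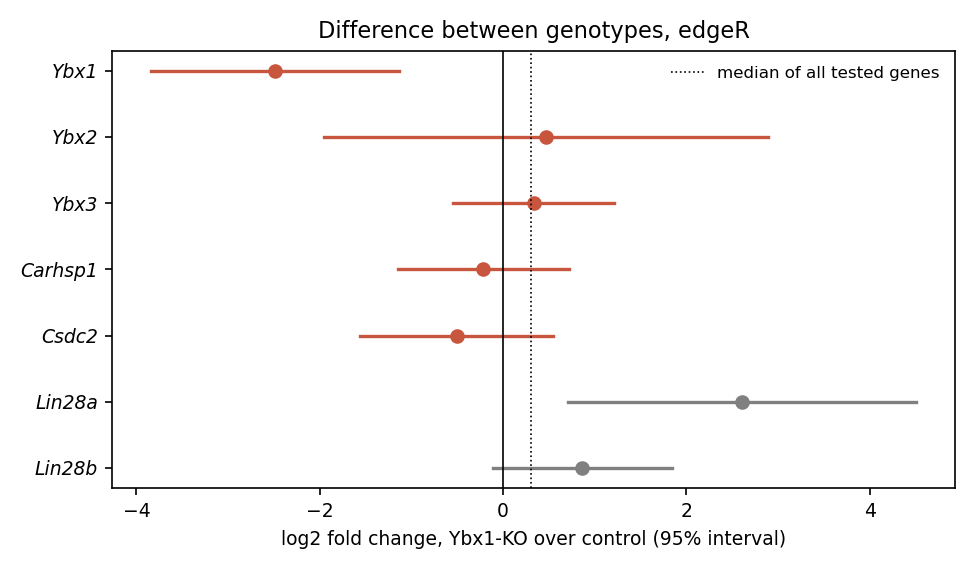
Log2 fold change of Ybx1-KO over control (horizontal axis) with its 95% interval from edgeR for the 5 genes (red) and for Lin28a and Lin28b (grey), and the median of all tested genes (dotted). Only the intervals of Ybx1, from -3.84 to -1.14, and Lin28a, from 0.70 to 4.51, leave out 0.

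Y-box proteins act in messenger ribonucleoprotein particles, and 28 genes for proteins known to share these particles were examined. All 28 were tested, none was called, 5 had a positive and 23 a negative log2 fold change, and the median was -0.23, where the median of all genes was 0.31. Without Ybx1-KO library 3 the median of the list was -0.09 and that of all genes -0.16, with 10 of the 28 positive. The median of all genes was 0.013 when the filter was then applied again. The distance of the list from the table thus depended on Ybx1-KO library 3 and on the filter. At an unadjusted p below 0.05 there were 2 higher and 0 lower, where 6.96% of all genes were higher and 4.26% lower. In 5 of the 28, Fxr1, G3bp2, Hnrnpa1, Strap and Eif4e, all Ybx1-KO libraries lay below all controls, and in none did they all lie above, where 8.17% and 4.99% of all genes did. The highest log2 fold changes were those of Igf2bp1, which stabilizes mRNA (1.31, adjusted p = 0.432), Fxr2, a relative of the fragile X protein (1.17, adjusted p = 0.436), and Alyref, an mRNA export adaptor (0.72, adjusted p = 0.480), all in edgeR. The lowest were those of Pura, a single-stranded nucleic acid-binding protein (-0.97, adjusted p = 0.454), Hnrnpa1, a splicing regulator (-0.85, adjusted p = 0.450), and G3bp2, a stress granule protein (-0.64, adjusted p = 0.515), also in edgeR.

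Igf2bp1 had 34.6, 116 and 38.1 CPM across controls and 174, 189 and 103 CPM across Ybx1-KO libraries. It overlapped through control library 2, which also had the highest Ybx1. Hnrnpa1 had 449, 396 and 356 CPM in control and 279, 219 and 166 CPM in Ybx1-KO. Its groups lay apart, with a two-sided unadjusted p of 0.0686 in edgeR.

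Markers of the cell types that the sort could hold were set beside these results. At an unadjusted p below 0.05, the shares of all genes were 6.96% higher and 4.26% lower, as above. A log2 fold change above 0 was found in 61.3% of all genes, and in 43.2% without Ybx1-KO library 3. Sox2, the gene of the sort, had 17.2, 42.3 and 47.6 CPM in control and 33.0, 49.8 and 23.8 CPM in Ybx1-KO. The summed level of 8 neural progenitor markers was 1487, 1440 and 1566 CPM in control and 1944, 1559 and 1141 CPM in Ybx1-KO, and 6 of the 8 had a positive log2 fold change, 4 with an unadjusted p below 0.05. Without Ybx1-KO library 3, 7 of the 8 had a positive one, with a median of 0.69 where that of all genes was -0.16. In 4 of the 8, both remaining Ybx1-KO libraries lay above all controls, as in 10.3% of the 21329 genes tested. With all 6 libraries, 6 of 8 neuron markers had a negative log2 fold change, 1 with an unadjusted p below 0.05. Their sum was 3022 to 4553 CPM in control and 3349, 3109 and 1247 CPM in Ybx1-KO libraries 1, 2 and 3. Of the same 8 markers, 4 had a negative and 4 a positive log2 fold change without Ybx1-KO library 3. The sorted cells therefore held neuronal RNA in both groups. The sum of 9 mesenchyme markers was 916, 169 and 233 CPM in control and 149, 157 and 94.6 CPM in Ybx1-KO, without overlap, and 8 of 8 tested had a negative log2 fold change, 5 with an unadjusted p below 0.05. Without Ybx1-KO library 3, 6 of the 8 had a negative one. Choroid plexus markers summed to 706, 40.6 and 951 CPM in control and 48.4 to 59.3 CPM in Ybx1-KO, and Ttr gave most of it in controls. Erythroid markers summed to 517 to 1209 CPM in control and 211 to 1225 CPM in Ybx1-KO. Within that overlapping sum, 3 of 10 had an unadjusted p below 0.05 and were lower and 1 was higher. The adult globin gene Hbb-bs had 593, 16.1 and 188 CPM in control and 20.0, 6.23 and 4.90 CPM in Ybx1-KO (log2 fold change -4.67, adjusted p = 0.167 in edgeR, the smallest of the table), while the embryonic globin gene Hbb-bh1 had 0.803, 16.2 and 0.700 CPM and 51.6, 20.3 and 9.93 CPM (log2 fold change 2.21, adjusted p = 0.444 in edgeR). The genotypes overlapped at the other globin genes listed. Their log2 fold changes were -3.25 for Hbb-bt, -1.09 for Hba-a2, -0.55 for Hba-a1, 0.32 for Hbb-y and 0.26 for Hba-x. The median of all genes was 0.31. Endothelial and microglia markers stayed below 50 CPM in every library. The part of these other cell types in the levels of Ybx1, Ybx3 and Csdc2 was not tested. Control library 2, with the lowest mesenchyme and choroid plexus sums of the controls, had the highest Ybx1. The Ybx1-KO libraries had lower mesenchyme sums than that library, higher choroid plexus sums and less Ybx1.

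For each gene, the tested protein-coding genes whose log2 level followed it most closely over the 6 libraries were listed as a description, from 13692 candidates. The libraries share depth, background and genotype, so high values are common. Ybx1 was followed by Ss18l1 (r = 0.997), Celf4 and Klhl13, and all 3 had every Ybx1-KO library below every control. Ybx3 was followed by Smpd1 (r = 0.993), Fbxw8 and Mcts2, which were likewise highest in Ybx1-KO libraries 1 and 2 and lowest in library 3. Ybx2 was followed by Kank2 (r = 0.994), Lta4h and Plekho2, which were highest in Ybx1-KO library 2 and lowest in library 1. Carhsp1 was followed by Dusp4 (r = 0.997), Bcr and Cmip, and Csdc2 by Cend1 (r = 0.999), Mcat and Faap24, and these 6 had their lowest level in Ybx1-KO library 3.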

How the data were processed

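RNA from 3 control and 3 Ybx1-KO libraries of Sox2-positive E13.5 NPCs was analysed as deposited. The authors sequenced read pairs, mapped them to mouse (the labels name mm10 and GRCm38.p5), counted them on GENCODE genes with HTSeq 0.6.1p1 and deposited raw counts per gene symbol without normalization. The aligner and the strand setting of the counting are not given in the sources used here. Groups follow the genotype labels. Library numbers follow accession order and pair nothing. The titles of control libraries 1 and 2 share a first number, as do those of Ybx1-KO libraries 1 and 2. No control title shares its first number with a Ybx1-KO title, and the title of Ybx1-KO library 3 has none. If the number marks a litter, libraries of a group are not all independent and genotype cannot be told apart from litter. The p-values measure only the spread between these libraries.

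Symbols were matched to GENCODE M21 (47624 directly, 357 by synonym). Tallies of unassigned pairs were left out of the library sizes. The 21329 genes whose mean FPKM exceeded 1 in control or in Ybx1-KO were tested with edgeR 4.0.16 (quasi-likelihood, TMM, Benjamini-Hochberg), with calls made where the adjusted p was under 0.05 and the fold change over 1.5. Limma-voom (limma 3.58.1), the tool of the authors, DESeq2 1.42.0, other scalings and filters, subtraction of receptor background and leaving out each library were alternatives. Leaving out a library with the filter applied again was added after seeing the data. Exact permutation tests used log2 (CPM + 1). A level below 3 counts, 0.126 to 0.632 CPM by library, was near the floor. Intervals on counts cover counting error only. In simulated data of 3 against 3 libraries, edgeR recovered 36.0% of 197 genes changed 4-fold and 64.6% of 198 changed 8-fold. It also called 17 and 23 unchanged genes. The simulation gave no library a background like that of Ybx1-KO library 3, so these shares may not carry over.

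The members and lists were chosen with earlier results of these data known. Genes named are the 5 members, other cold-shock genes (one result under this rule is not reported here), processed copies with a member's symbol, the 3 highest and 3 lowest particle genes and the 3 best correlated genes per member. Gm11560 and Gm9791, the 5 non-overlapping particle genes and single markers were named after their values were seen.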

Additional observations from a re-analysis of the deposited data

How the results depend on the processing

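None of Ybx2, Ybx3, Carhsp1 and Csdc2 was called under any alternative, and Ybx3 kept a positive sign (0.03 to 0.65) and Csdc2 a negative one in all 20. Ybx1 stayed between -3.49 and -1.95. It passed both thresholds with DESeq2 (-2.44, adjusted p = 0.0236) and with no filter on low counts in edgeR (-2.52, adjusted p = 0.0214). Leaving out 1 library gave Ybx1 -3.49 to -1.99, with a call only without Ybx1-KO library 1. With the filter applied again it gave -3.49 to -1.95, with calls without Ybx1-KO library 1 (-3.49) and library 2 (-2.41). In these 2 fits 696 of 24299 and 725 of 24344 genes were called. The same 2 ways of leaving out a library gave Ybx2 -0.21 to 0.93 and -0.33 to 0.90, negative only without Ybx1-KO library 2 (-0.21 and -0.33), and Carhsp1 -0.60 to 0.037 and -0.65 to 0.069. Carhsp1 was positive only without control library 2 (0.014 and 0.020) and Ybx1-KO library 3 (0.037 and 0.069). The cause of these changes was not tested. Lin28a was called only without Ybx1-KO library 1 and with the filter applied again (2.99, adjusted p = 0.000527 in edgeR), where 696 of 24299 genes were called. With the main filter the same omission gave Lin28a 3.12 and no call (adjusted p = 0.0787 in edgeR). Across the table, edgeR called 0 genes, DESeq2 214, and edgeR with no filter 193. Leaving out 1 library gave 0 to 420 calls (71 without control library 2, and 28, 420 and 50 without Ybx1-KO libraries 1, 2 and 3), and 0 to 725 with the filter applied again (73, 696, 725 and 0 for the same libraries). Depth limits Ybx2 most, with 5 counts in Ybx1-KO library 1. No paired analysis was possible because the numbers of the libraries follow accession order alone and no title number is shared between the genotypes.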
